A study of Canis lupus familiaris with 8 samples.

Results

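WIF1, FRZB and SFRP4 encode 3 secreted antagonists of Wnt signalling, and they were read by 4 of the 23913 probe sets in the deposited table. All probe sets that the platform annotation assigns to these symbols were taken, 1 for WIF1, 2 for FRZB and 1 for SFRP4, out of 10549 probe sets with 1 gene symbol. The genes were chosen with their differences between affected and control leaflets already known, so those differences are given as a description, with a standard error and no test. RNA came from frozen anterior mitral valve leaflets of 8 dogs, 1 Affymetrix array per dog. The 4 affected dogs had degenerative mitral valve disease, a thickening of the leaflets, and affected 1 was a Lhasa apso, affected 3 a Dachshund, and both affected 2 and affected 4 were Miniature poodles. The 4 control dogs were all beagle crosses, so breed and disease cannot be told apart. No treatment, age or batch is given in the sources used here.

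Wnt proteins are secreted lipid-modified signals that bind Frizzled receptors and their LRP co-receptors, which stabilises beta-catenin and lets it act with TCF and LEF factors in the nucleus. Secreted antagonists bind Wnt proteins outside the cell. WIF1 does so through a WIF domain followed by EGF-like repeats, while FRZB and SFRP4 belong to the secreted Frizzled-related proteins, which carry a cysteine-rich domain like that of the Frizzled receptors and a netrin-like domain. FRZB was first isolated from cartilage and WIF1 is also made there, and loss of SFRP4 in humans causes a bone disorder. In the heart, Wnt signals take part in the formation of the valves from the endocardial cushions.

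Values are MAS5 signals on a linear scale, given with 3 leading digits or more, and log2 values were taken after raising signals below 34.2 to that floor (log2 5.10). Every array had a trimmed mean of 500.1, and the median signal of an array lay between 124 and 191. Control 2 stood apart: its median correlation with the other controls over 14705 tested probe sets was 0.83, against 0.93 for each of the other 3 controls. Its mean log2 signal over 16 cardiac muscle markers was 13.41, the highest of the 8 dogs, and that over 8 markers of valve interstitial cells and fibroblasts was 11.64, against 13.45 to 14.02 in the other controls. The differences of the 3 genes, and those of some other genes, are therefore also given without that dog. A difference given only with all dogs may depend on it as well. In whole leaflets, fewer cells of a type and less RNA per cell cannot be told apart.

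WIF1 was low in affected leaflets relative to 3 of the 4 controls. Its signal was 108 in affected 1, 460.0 in affected 2, 716 in affected 3 and 651 in affected 4, against 2683 in control 1, 122 in control 2, 3686 in control 3 and 3284 in control 4. The groups overlapped because of control 2 alone, which lay just above affected 1 and below the other affected dogs. The mean log2 signal was 8.61 ± 1.26 in affected dogs and 10.46 ± 2.36 in control dogs (SD, n = 4 each), a difference of -1.85 ± 1.04 (log2, SE, affected minus control) and 3.61 times lower. Of the 14705 tested probe sets, 31 had a more negative difference. Nothing is read from such ranks, since the gene was chosen with its difference known. Without control 2, affected dogs at 8.61 stood against controls at 11.64 ± 0.23 (SD, n = 3), the difference was -3.03 ± 0.57 and WIF1 was 8.17 times lower in affected dogs, with 3 tested probe sets more negative. The spread among the affected dogs was wider than among those 3 controls, and without affected 1 the difference was -1.24.

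FRZB, also known as SFRP3, was likewise low in 3 affected dogs and in control 2, but high in affected 3. The signal of its brighter probe set was 594 in affected 1, 531 in affected 2, 2765 in affected 3 and 366 in affected 4, against 2006 in control 1, 205 in control 2, 4742 in control 3 and 3750.1 in control 4. Affected 3 lay above control 1, and the other 3 affected dogs lay between control 2 and the remaining controls. The mean log2 signal was 9.55 ± 1.29 in affected dogs and 10.68 ± 2.07 in control dogs (SD, n = 4 each), a difference of -1.13 ± 0.95 (log2, SE) and 2.19 times lower. Without control 2 the difference was -2.13 ± 0.61 and FRZB was 4.38 times lower. It was -0.62 without control 3, -0.73 without control 4 and -1.76 without affected 3.

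The other FRZB probe set was dim. Its signal was 146 in affected 1, 84.1 in affected 2, 232 in affected 3 and 71.3 in affected 4, against 140.0 in control 1, 29.0 in control 2, 179 in control 3 and 235 in control 4. The control 2 value was below the floor, so the difference against controls depends on that floor. Its mean log2 signal was 6.90 ± 0.78 in affected dogs and 6.90 ± 1.24 in control dogs, a difference of 0.0030 ± 0.61 (log2, SE), and -0.60 ± 0.45 without control 2. The order of the dogs was close to that of the brighter FRZB probe set (Spearman's rho 0.90 over 8 dogs, Pearson's r 0.90, and r 0.86 without control 2). Both probe sets were lowest in control 2, but with all 8 dogs only the brighter one had a lower mean in affected dogs. The name of the brighter one ends in _x_at, which marks probes that can also bind other sequences, and that of the dimmer one in _s_at, which marks probes shared by several transcripts.

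SFRP4 had the same low value in control 2 but no lower mean in affected dogs. Its signal was 3717 in affected 1, 1625 in affected 2, 9689 in affected 3 and 4849 in affected 4, against 8892 in control 1, 241 in control 2, 9105 in control 3 and 7241 in control 4. Affected 3 was the highest of all 8 dogs, and the other affected dogs lay below controls 1, 3 and 4 and above control 2. The mean log2 signal was 12.00 ± 1.06 in affected dogs and 11.75 ± 2.56 in control dogs (SD, n = 4 each), a difference of 0.25 ± 1.08 (log2, SE). Without control 2 the direction turned: affected dogs at 12.00 stood against controls at 13.03 ± 0.18 (SD, n = 3), the difference was -1.03 ± 0.49 and SFRP4 was 2.04 times lower in affected dogs. Without affected 3 it was -0.16, and without control 3 it was 0.72.

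**Figure D1:**
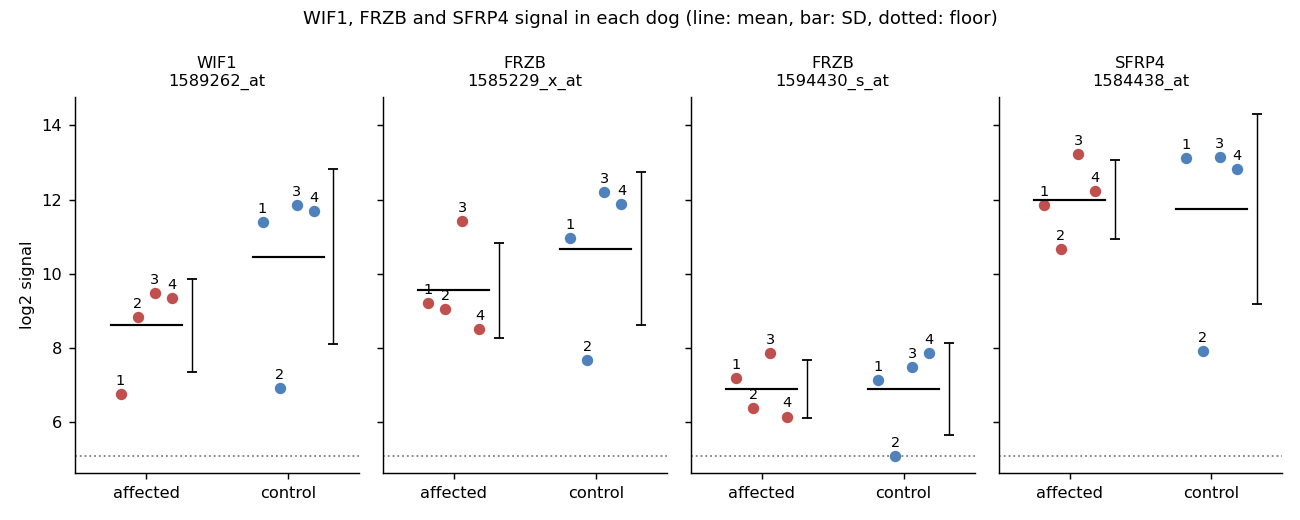
Log2 signal of the 4 probe sets (vertical axis) in the 4 affected dogs (red, left) and the 4 control dogs (blue, right), with the dog's number above each point, the group mean as a line, the SD as a bar and the floor of 5.10 dotted. Control 2 is the lowest dog for FRZB and SFRP4, and for WIF1 affected 1 at 6.76 and control 2 at 6.93 lie side by side.

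Over all tested probe sets, the affected dogs lay entirely below the controls for 2.31%, and 0 of the 4 probe sets of these genes did so. Without control 2 the share of all tested probe sets was 5.23%, and 1 of the 4, that of WIF1, did so. Since the genes were chosen for this contrast, nothing is read from these counts. For the brighter FRZB probe set and for SFRP4, 3 of 4 affected dogs lay below controls 1, 3 and 4, the exception being affected 3 for both genes. For the dimmer FRZB probe set 2 of 4 did so.

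**Figure D2:**
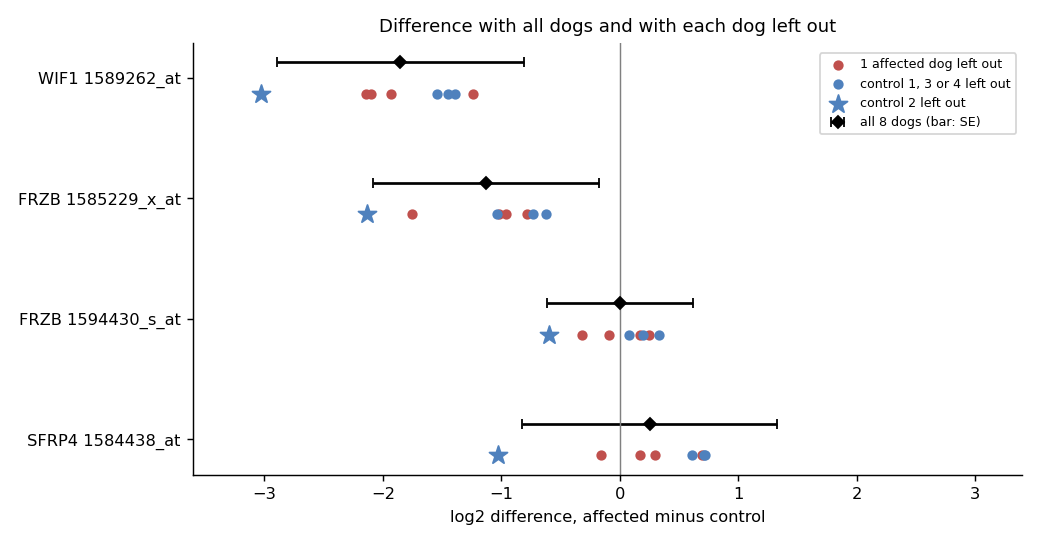
Log2 difference, affected minus control (horizontal axis), for each probe set with all 8 dogs (black diamond, bar for the SE) and with each dog left out (red for an affected dog, blue for a control, star for control 2). Leaving out control 2 gives the most negative difference of all 4 probe sets, from -3.03 for WIF1 to -0.60 for the dimmer FRZB probe set.

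The probe sets of WIF1 and SFRP4 and the brighter one of FRZB were among the most variable of those tested. From the lowest to the highest dog the signal differed by a factor of 34.0 for WIF1, 23.2 for the brighter FRZB probe set and 40.2 for SFRP4. The SD of their log2 signal over the 8 dogs, at 2.01, 1.71 and 1.82, was larger than that of 99.6%, 99.1% and 99.4% of the tested probe sets. For the dimmer FRZB probe set the SD was 0.96, larger than that of 89.6%. These SDs contain the group differences known when the genes were chosen, so nothing is read from their ranks. Control 2 was far from the other controls for each gene. Against the mean of the other 3 controls, control 2 was lower by a factor of 26.2 for WIF1, 16.1 for FRZB and 34.7 for SFRP4, and only 17, 58 and 9 of the 14705 tested probe sets were further down in that dog. The 2 WIF1 factors rest on signals near background and are imprecise. WIF1 lay above 39.7% of the probe sets in affected 1 and above 45.4% in control 2.

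Pearson's r of log2 signal over the 8 dogs was 0.83 between WIF1 and FRZB, 0.71 between WIF1 and SFRP4 and 0.81 between FRZB and SFRP4, with 0.76, 0.63 and 0.77 without control 2. These values are a description: the points share 2 groups and 1 dog that is low for all genes. Among the affected dogs, affected 3 had the highest signal of all 4 probe sets, while the lowest dog differed, namely affected 1 for WIF1, affected 4 for both FRZB probe sets and affected 2 for SFRP4.

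Within a dog, WIF1 differed from SFRP4 by more in affected leaflets than in controls. The log2 signal of WIF1 minus that of SFRP4 was -5.10, -1.82, -3.76 and -2.90 in affected 1 to 4, against -1.73, -0.98, -1.30 and -1.14 in control 1 to 4. All 4 affected dogs lay below all 4 controls, control 2 included, and the group means differed by -2.10 (log2). Of all tested probe sets, 0.102% had no overlap in this direction when SFRP4 was subtracted in the same way. The nearest dogs of the 2 groups were affected 2 and control 1, and the SD was 1.39 in affected dogs and 0.32 in control dogs. These values describe WIF1 relative to SFRP4 and not which of the genes differed. They are no independent support, since they come from the contrast that chose the genes.

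FRZB minus SFRP4 was -2.65, -1.61, -1.81 and -3.73 in affected 1 to 4, against -2.15, -0.23, -0.94 and -0.95 in control 1 to 4. The groups overlapped, since control 1 lay below affected 2 and affected 3. WIF1 minus FRZB was -2.45, -0.21, -1.95 and 0.83 in affected 1 to 4, against 0.42, -0.75, -0.36 and -0.19 in control 1 to 4, and affected dogs lay on both sides of the controls. Relative to the control mean, affected 1 and affected 3 were lower for WIF1 than for FRZB, and affected 4 was lower for FRZB than for WIF1.

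**Figure D3:**
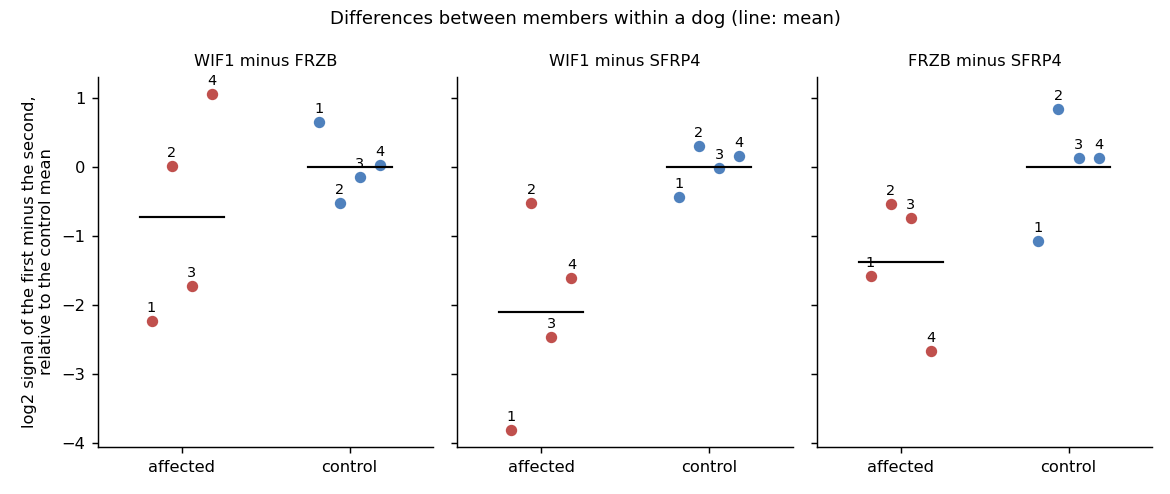
Difference in log2 signal between pairs of the 3 genes within each dog (vertical axis, with the control mean set to 0), for affected dogs (red, left) and control dogs (blue, right), with dog numbers and group means as lines. For WIF1 minus SFRP4 the 4 affected dogs lie below all 4 controls, while the groups overlap for the other pairs.

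Marker lists were set beside the 3 genes for the cell types a leaflet could hold. Over the 8 dogs WIF1 and FRZB followed the cartilage and tendon-like list more closely than any other of the 10 lists. This list held 14 genes, of which 6 were named on the array and tested: the cartilage proteoglycan ACAN, the cartilage transcription factor SOX9, the matrix proteins COMP, COL2A1 and CILP, and the tendon gene TNMD. Its mean log2 signal was 8.97, 9.09, 10.41 and 9.07 in affected 1 to 4, against 10.82, 7.80, 11.26 and 11.06 in control 1 to 4. Affected 3 was again the highest affected dog and control 2 the lowest of all. Pearson's r with the list mean over 8 dogs was 0.92 for WIF1, 0.97 for FRZB and 0.86 for SFRP4, and 0.89, 0.97 and 0.80 without control 2. For SFRP4 the fibroblast list was level with it over 8 dogs (0.86) but not without control 2 (0.083). All 6 list genes were lower in control 2 than the mean of the other controls, by a median of -3.33 (log2).

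The differences of that list's genes depended on control 2. None passed limma at an adjusted p of 0.05, where 0 of the 14705 tested probe sets did, and 2 of 6 had an unadjusted p under 0.05, against 8.72% of the 5438 genes tested. CILP differed by -2.13 ± 0.65 (log2, SE) and TNMD by -2.00 ± 0.83. SOX9 differed by -0.59 ± 0.77, ACAN by -0.36 ± 1.27, COL2A1 by -0.049 ± 0.22 and COMP by 0.0039 ± 0.83. Without control 2 all 6 differences were below 0, at -2.78 ± 0.44 for CILP, -2.79 ± 0.61 for TNMD, -1.45 ± 0.43 for SOX9, -1.82 ± 0.65 for ACAN, -0.15 ± 0.22 for COL2A1 and -0.98 ± 0.37 for COMP. Then 5 of 6 had an unadjusted p under 0.05, against 4.67% of all genes with such a p and a lower signal, and 0 passed limma's adjusted p. With the list mean as a covariate, the difference of WIF1 was -0.68, that of FRZB 0.010 and that of SFRP4 1.53. This covariate was added after the values were seen, and the part of these cells in the differences was not tested.

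Markers of valve interstitial cells and fibroblasts did not separate the dogs in the same way. Of 12 listed genes, 8 were tested, among them the collagens COL1A1, COL1A2 and COL3A1, the proteoglycan DCN and the filament protein VIM. The mean log2 signal of the list ranged from 13.47 to 13.80 in affected dogs and from 11.64 to 14.02 in control dogs, and 0 of the 8 had an unadjusted p under 0.05. The median difference was 0.33, and it turned to -0.13 without control 2. Then 1 of the 8, COL3A1 at -0.74 ± 0.29, was lower with an unadjusted p under 0.05, against 4.67% of all genes. Control 2 was lower than the mean of the other controls for all 8, by a median of -2.29. With this list mean as a covariate, also added after the values were seen, the difference was -2.77 for WIF1, -2.01 for the brighter FRZB probe set and -0.77 for SFRP4.

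Cardiac muscle markers were opposite in control 2. Of 24 listed genes, 16 were tested, and all 16 were higher in control 2 than the mean of the other controls, by a median of 2.01. The mean log2 signal ranged from 9.91 to 12.77 in affected dogs and from 10.94 to 13.41 in control dogs. The median difference was -0.59 with all dogs and -0.12 without control 2. Affected 3, which had the highest FRZB and SFRP4 signals of the affected dogs, had the lowest muscle signal of all 8 dogs. Pearson's r with the muscle list mean was -0.39 for WIF1, -0.63 for FRZB and -0.81 for SFRP4, and -0.10, -0.43 and -0.72 without control 2. With the muscle list mean as a covariate, the difference was -2.46 for WIF1, -1.84 for the brighter FRZB probe set and -0.57 for SFRP4, so the direction of SFRP4 turned. The part of muscle in these differences was not tested further.

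Macrophage and monocyte markers were higher in affected dogs on average: 16 of 16 tested genes, out of 17 listed, had a positive difference, 10 of them with an unadjusted p under 0.05, which 4.8% of all genes reached in that direction. The median difference was 1.94, and 1.16 without control 2. Their mean log2 signal ranged from 9.85 to 11.05 in affected dogs and from 6.40 to 9.64 in control dogs, with the lowest value in control 2. Endothelial markers ranged from 10.80 to 11.22 in affected dogs and from 9.91 to 10.39 in control dogs, with 6 of 6 tested genes positive and 4 of 6 with an unadjusted p under 0.05. WIF1 had Pearson's r of -0.013 with the macrophage list and -0.54 with the endothelial list over 8 dogs, and -0.90 and -0.94 without control 2. Smooth muscle and myofibroblast markers, such as ACTA2, ranged from 11.45 to 13.23 in affected dogs and from 11.20 to 12.91 in control dogs. Their r was -0.81 with WIF1, -0.75 with FRZB and -0.74 with SFRP4, and -0.77, -0.69 and -0.89 without control 2. Fat cell markers, of which 2 of 7 were tested, ranged from 6.37 to 7.14 in affected dogs and from 5.89 to 10.51 in control dogs. Their r was 0.84, 0.82 and 0.68 in the same order, and 0.79, 0.76 and 0.64 without control 2. ADIPOQ differed by -2.82 ± 1.36 and LEP by -0.48 ± 0.33, and by -4.44 and -0.60 without control 2. The part of these cells was not tested. Lymphocyte and mast cell lists had 3 and 1 tested genes, 0 of them with an unadjusted p under 0.05.

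Schwann cell and nerve markers, of which 3 of 7 were tested, also ran with the 3 genes. Their mean log2 signal ranged from 7.89 to 8.56 in affected dogs and from 8.15 to 8.99 in control dogs. Pearson's r with it was 0.77 for WIF1, 0.78 for FRZB and 0.71 for SFRP4, and 0.74, 0.76 and 0.92 without control 2, where the value for SFRP4 was above that of the cartilage list. All 3 tested genes had an unadjusted p under 0.05, against 8.72% of the 5438 genes tested, and none passed limma's adjusted p. They differed in opposite directions, so the list mean mixes them. S100B, a protein of Schwann cells and also of cartilage, differed by -1.54 ± 0.65 and the adhesion molecule NCAM1 by -1.01 ± 0.27, while the axon growth protein GAP43 differed by 1.58 ± 0.35. Without control 2 S100B was at -2.23, NCAM1 at -0.83 and GAP43 at 1.63. No listed gene named on the array was at the floor in all 8 dogs, and the part of these cells in the differences of the 3 genes was not tested.

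**Figure D4:**
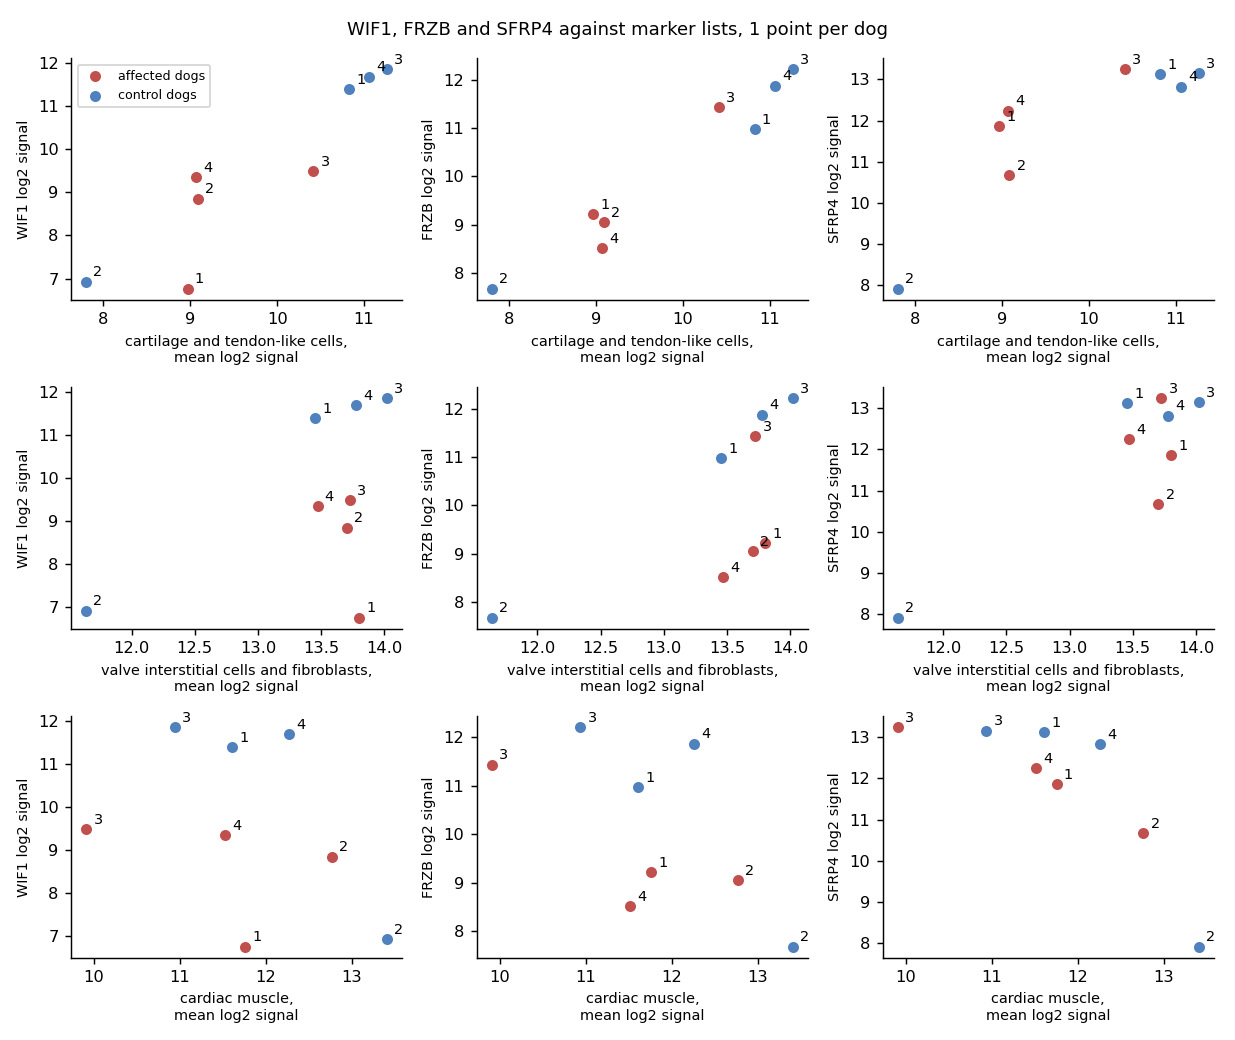
Log2 signal of WIF1, FRZB (brighter probe set) and SFRP4 (vertical axes) against the mean log2 signal of 3 marker lists (horizontal axes), with 1 numbered point per dog, affected in red and control in blue. For FRZB the points run along the cartilage and tendon-like list (r 0.97 over 8 dogs), whereas with the fibroblast list control 2 lies alone at 11.64.

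The genes whose log2 signal over the 8 dogs was most like that of WIF1, among 5437 other genes, were SNRPD1, a core protein of splicing particles (r 0.99), EPB41L2, a protein of the membrane skeleton (0.98), SLC22A17, a lipocalin receptor (0.98), PRICKLE1, a component of planar cell polarity signalling (0.97), and IFT22, a protein of cilium transport (0.95). After group means were subtracted these values were 0.99, 0.99, 0.97, 0.97 and 0.94. Of these, PRICKLE1 had the largest difference, at -0.75 ± 0.53 (log2, SE), and -1.29 ± 0.37 without control 2. FRZB ranked 112th and SFRP4 344th in likeness to WIF1. Without control 2, CILP entered the first 5 with r 0.97.

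For FRZB the first 5 were FILIP1L (r 0.98), the chromatin remodelling subunit BPTF (0.98), TMEM47 (0.98), GPRASP2 (0.97) and LOC480441 (0.97). Without control 2 the first was ASPN, a small leucine-rich proteoglycan, with r 0.99. For SFRP4 they were TMEM30A, a subunit of lipid flippases (0.99), MMP2, a gelatinase (0.99), PGRMC1 (0.99), PCOLCE, an enhancer of procollagen processing (0.98), and UST, a sulfotransferase of glycosaminoglycans (0.98). MMP2 and PCOLCE were low in control 2 as well, at -3.65 and -3.39 (log2) against the mean of the other controls, and without that dog their r with SFRP4 was 0.97 and 0.93. Their differences were 0.14 ± 0.79 and 0.33 ± 0.71, and both turned without control 2, to -0.77 ± 0.39 and -0.51 ± 0.30. So did those of TMEM30A, PGRMC1 and UST, from 0.21, 0.071 and 0.10 to -0.31, -0.18 and -0.33. These values of r are a description over 8 points that share 2 groups and control 2.

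The other genes of the Wnt pathway were compared with limma to ask whether ligands, receptors, relay proteins or targets differed between affected and control leaflets. Of 103 listed genes, 27 were named on the array and 26 were tested, and 0 passed at an adjusted p of 0.05 over all 14705 tested probe sets (0%). At an unadjusted p under 0.05, 1 was higher and 1 was lower, against 4.8% higher and 3.92% lower among the 5438 genes tested, so these counts were near the background. Of the 26 differences, 20 were above 0 and 6 below, against 50.5% below 0 over all genes. Their median was 0.098 against -0.0056 over all genes. That split depended on control 2. Without that dog WLS, PORCN, FZD6, RYK, NDP, TPBG and TLE4 turned below 0, TLE4 to -0.45, and none turned the other way. SFRP1, SFRP2, LRP6 and AXIN2 were not named on the array, and neither were 17 of the 19 ligands.

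Of the other secreted antagonists, 3 of 12 were tested, with differences in both directions. IGFBP4, an insulin-like growth factor binding protein that also inhibits Wnt signalling at its receptors, had signals of 1724, 1441, 1889 and 1550.2 in affected 1 to 4, against 1072, 562, 1224 and 847 in control 1 to 4. All affected dogs lay above all controls, as for 2.35% of the tested probe sets. The difference was 0.89 ± 0.28 (log2, SE, limma adjusted p = 0.517, unadjusted p = 0.00921), which does not pass over all probe sets. Across the alternatives its adjusted p ranged from 0.0597 to 0.967.

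DKK2, a Dickkopf protein that binds LRP co-receptors, had signals of 717, 576, 792 and 744 in affected 1 to 4, against 633, 104, 578 and 506 in control 1 to 4. Control 2 was low here as for WIF1, and the groups overlapped. The difference was 0.92 ± 0.52 (limma adjusted p = 0.687), and 0.30 without control 2. DKK3, another Dickkopf protein, had 3 probe sets with differences of -0.61 ± 0.33, -0.40 ± 0.39 and -0.97 ± 0.37. Its brightest probe set read 6060 in affected 1, 11959 in affected 2, 7209 in affected 3 and 8454 in affected 4, against 8802 in control 1, 21679 in control 2, 9792 in control 3 and 12792 in control 4. Control 2 was the highest dog for 2 of the 3 DKK3 probe sets, the reverse of its place for FRZB and SFRP4, and control 4 was the highest for the other. The limma adjusted p of the brightest probe set was 0.672. For the probe set at -0.97 all affected dogs lay below all controls, as for 2.31% of the tested probe sets (limma adjusted p = 0.597, unadjusted p = 0.0261). Without control 2 the differences were -0.34, -0.22 and -0.65, in the same order.

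Among ligands, WNT3 differed by 0.31 ± 0.22 and WNT8B by -0.088 ± 0.38. The secretion factors WLS, which carries Wnt proteins to the surface, and PORCN, which attaches their lipid, differed by 0.15 ± 0.28 and 0.097 ± 0.28. Of the 4 tested receptors, the co-receptor LRP5 differed by -0.63 ± 0.47, the Frizzled receptor FZD6 by 0.095 ± 0.30 and the receptor-like kinase RYK by 0.079 ± 0.34. None of these passed the test, and without control 2 WLS, PORCN, FZD6 and RYK turned, to -0.094, -0.11, -0.0044 and -0.22.

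LGR4, a receptor for R-spondins, which enhance Wnt signalling, had signals of 257, 464, 515 and 176 in affected 1 to 4, against 562, 588, 568 and 654 in control 1 to 4. All affected dogs lay below all controls, as for 2.31% of the tested probe sets, and here control 2 lay among the other controls. The difference was -0.88 ± 0.35 (limma adjusted p = 0.604, unadjusted p = 0.0291). NDP, a ligand of a Frizzled receptor, differed by 0.19 ± 0.59, and TPBG, a membrane inhibitor, by 0.53 ± 0.57. Without control 2 both turned, to -0.050 and -0.088.

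The relay from receptor to nucleus held no gene that passed. By the brightest probe set of each, all 6 tested genes of the cytoplasmic list had differences above 0, with a median of 0.28. None had an unadjusted p under 0.05. Dimmer probe sets did not all share that direction: those of APC differed by -0.79 and -0.034, and those of CSNK1A1 by -0.28 to 0.51. The kinases CSNK1E, CSNK1D and GSK3B differed by 0.51 ± 0.25, 0.39 ± 0.26 and 0.56 ± 0.40. The brightest probe set of CTNNB1, which encodes beta-catenin, differed by 0.076 ± 0.20, and its other probe sets by 0.15 ± 0.28 and -0.52 ± 0.34. Among nuclear factors, LEF1, a partner of beta-catenin, differed by -0.52 ± 0.28 (limma adjusted p = 0.672), TLE1, a corepressor, by -0.18 ± 0.25 and the coactivator BCL9 by 0.085 ± 0.34. Of 14 listed targets 2 were tested, the hyaluronan receptor CD44 at 0.81 ± 0.50 and the bone transcription factor RUNX2 at 0.38 ± 0.49, which is too few to describe target activity.

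**Figure D5:**
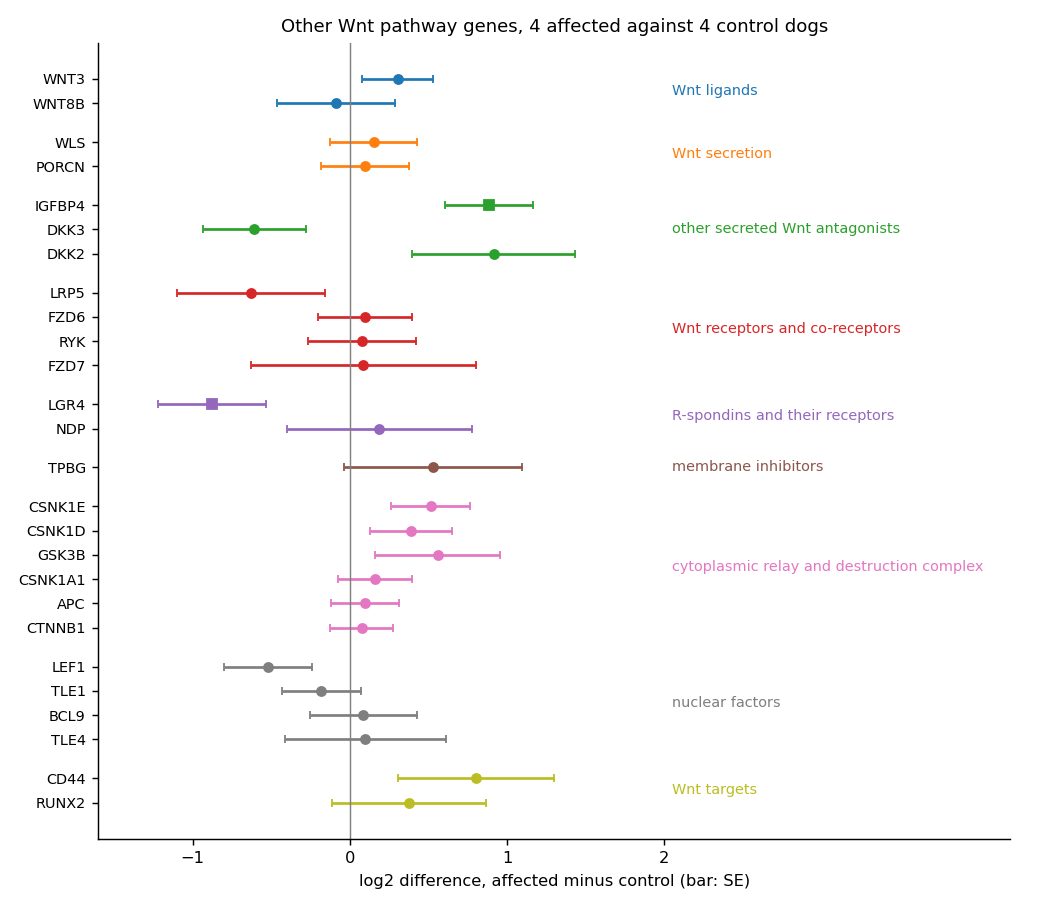
Log2 difference, affected minus control, with its SE (horizontal axis) for the brightest probe set of the 26 other Wnt pathway genes tested, grouped by role, with squares for genes whose groups do not overlap. IGFBP4 at 0.89 and LGR4 at -0.88 are the squares, and none of the 26 passes limma at an adjusted p of 0.05.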

How the data were processed

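Per the labels, total RNA of each leaflet was biotin-labelled for 1 array. The authors deposited linear MAS5 intensity values, 1 per probe set, as the submitters' processing notes record. Its version, detection calls and filters were not given in the sources used here. Signals near background are imprecise, and scaling to a common trimmed mean (2% off each end) assumes equal total signal. Precision is limited by the number of arrays.

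Of 23913 rows, 77 array controls were left out. Symbols came from the platform annotation, and 10046 gene identifiers were matched to RefSeq, with 0 symbols changed. Signals were rescaled to the common trimmed mean, raised to a floor at the 20th percentile of all signals and log2-transformed. Probe sets entered the test when 4 or more of the 8 arrays exceeded their own 40th percentile. Groups of 4 dogs were compared with limma 3.58.1 in R 4.3.3 (lmFit, then eBayes with a trend on intensity). Tests were two-sided and p-values were adjusted by Benjamini-Hochberg over 14705 probe sets, with a threshold of 0.05. Errors marked SE are limma's. The procedure was tested on simulated data.

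For a gene with several tested probe sets, the one with the highest mean log2 signal stood for it in lists and likeness. The genes named were all probe sets of WIF1, FRZB and SFRP4, the 3 smallest p of each Wnt list with 8 fixed genes, and the 5 genes with the highest Pearson r for each of the 3. CILP, ASPN and the marker genes given with values were added once values had been seen. The 3 genes, the lists and the rules were chosen with earlier results of these data known. The deviations of dogs with the same replicate number correlated at -0.12, 0.41, 0.022 and -0.013, and the labels tie no affected dog to a control. Alternatives were other normalizations, floors, filters, priors, array weights, covariates, the replicate number as a block and each dog left out.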

Additional observations from a re-analysis of the deposited data

Results flagged for a closer look

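Several groups of 4 dogs held 1 dog far from the other 3 by Dixon's criterion, which chance meets in about 1 of 20 groups. It was met in 15 of 82 groups, over the 41 probe sets of the 3 genes, the named Wnt genes and the genes most like the 3. The groups hold the same dogs for every probe set and are not independent, so this count is no test against that rate. In controls, control 2 was the low dog for WIF1 (log2 signal 6.93, next lowest 11.39) and SFRP4 (7.91, next lowest 12.82). It was also low for WLS (12.34), DKK2 (6.69), TPBG (7.94), SNRPD1 (10.42), EPB41L2 (8.73), TMEM47 (10.82), TMEM30A (8.05), MMP2 (8.66), PCOLCE (9.72) and UST (8.13), the likeness genes among them having been chosen for following the 3. In affected dogs, affected 4 was low for NDP (6.61, next lowest 9.23), and affected 3 was high for FILIP1L (11.42) and TMEM47 (12.92).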

How the results depend on the processing

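The WIF1 difference of -1.85 was below 0 under all 19 alternatives. Single dogs left out gave -3.03 (control 2) to -1.24 (affected 1), and the other alternatives -2.79 with array weights to -0.68 with the cartilage covariate. The brighter FRZB probe set, at -1.13, ranged from -2.13 to -0.62 with dogs left out and from -2.03 with array weights to 0.010 with the cartilage covariate. The dimmer one, at 0.0030, had no stable direction, from -0.60 to 0.33 with dogs left out, -0.62 with array weights, -0.20 when the floor was the 40th percentile and 0.062 with none. SFRP4, at 0.25, ranged from -1.03 to 0.72 with dogs left out and was -0.57, -0.68 and -0.77 with the muscle covariate, array weights and the fibroblast covariate. With the replicate block the differences were -1.85, -1.13, 0.0030 and 0.25. In that and every other alternative that used the adjusted p, 0 other Wnt genes passed. At an unadjusted p under 0.05, 2 did so in the main fit. That count was 4 with the replicate block, 4 with array weights, 5 with the cartilage covariate and 1 without affected 1 or without control 4. Over all probe sets, the replicate block called 4 and leaving out control 1 called 1. No affected dog is tied to a control by the labels, and 1 of 4 affected dogs correlated best with its own number.

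Of 22 named Wnt genes, 13 kept their sign under all alternatives and none passed. With dogs left out, the 9 others ranged from -0.34 to 0.086 for WNT8B, -0.094 to 0.25 for WLS, -0.11 to 0.27 for PORCN, -0.14 to 0.27 for FZD6, -0.22 to 0.23 for RYK, -0.055 to 0.86 for NDP, -0.088 to 0.81 for TPBG, -0.18 to 0.29 for BCL9 and -0.15 to 0.63 for RUNX2. Array weights gave 0.034 for WNT8B, -0.028 for WLS, -0.17 for PORCN, -0.079 for RYK and -0.13 for NDP. The muscle covariate gave 0.00085 for WNT8B, -0.081 for FZD6 and -0.15 for RYK. The fibroblast covariate gave -0.049 for WLS, -0.073 for PORCN, -0.15 for RYK and -0.059 for NDP, and the cartilage covariate -0.019 for BCL9. A floor at the 40th percentile gave 0.0054 for WNT8B and -0.0092 for RUNX2. The cause was not tested. LGR4 lost its unadjusted p under 0.05 without affected 1, affected 4 or control 4 and with the cartilage covariate, and IGFBP4 kept it throughout. CSNK1E, DKK2, DKK3, LEF1, CD44, NDP, TPBG and TLE4 reached such a p under some alternatives only, CSNK1E among them without control 2. Signals near background limit the dimmer FRZB probe set, LRP5, WNT8B and RUNX2.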
